A study of Mus musculus with 12 samples.

Results

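The TNF superfamily genes were taken as every gene symbol in the count files that starts with Tnfsf or Tnfrsf and a number, together with Tnf, Lta, Ltb, Ltbr, Fas, Fasl, Cd40, Cd40lg, Cd27 and Cd70. This rule used no measured value and gave 41 of 24421 genes, of which 17 encode ligands and 24 encode receptors. The RNA sequenced was that of 6 liver tumors, each set beside non-tumoral liver of its own mouse. Livers are named by the number of their mouse (L663 beside T-HCC663, and so on). The liver called L662 is titled p_961 in its label and was assigned to the mouse of T-HCC662 by elimination, so that every value paired or blocked by mouse rests on that assignment for this pair. The p21+/Tert mice carried Tert under the control of the promoter of p21 (Cdkn1a) and gave T-HCC941, T-HCC662, T-HCC663 and also T-HCA992. The p21+/TertCi mice carried a catalytically inactive Tert under the same promoter and gave TCi-HCC981 and TCi-HCA984. All 6 mice were aged, had a C57BL/6 background and ate a standard diet, all carried a Tert transgene, and every liver came from a tumor-bearing mouse, so that no liver without the transgene or without a tumor entered a comparison. Driver classes followed the mutations that the study found in these tumors. The Ctnnb1 class was T-HCC662 and T-HCC663, the Egfr or Hras class was T-HCC941 and TCi-HCC981, and T-HCA992 and TCi-HCA984 had neither. Each class held 2 tumors. Both tumors of the last class were named adenomas, and T-HCC663, although named HCC, is listed as an adenoma in the study's histology. Both tumors of the Ctnnb1 class came from p21+/Tert mice, so that genotype cannot be told apart from driver class there.

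TNF superfamily ligands are mostly trimers held in the membrane or shed from it, and they act by clustering their receptors. Receptors with a death domain can assemble complexes that activate caspases, and the others recruit TRAF adaptors that lead to NF-kB and MAP kinases. Decoy receptors bind ligand without passing on a signal. In the liver, Fas and the TNF receptors are known from hepatocyte death, and the lymphotoxin receptor and Fn14 (Tnfrsf12a) are known from regeneration and from progenitor cell reactions.

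Between 14571716 and 26170661 reads per library were counted on genes. The hepatocyte markers summed to at least 21207 CPM (counts per 1000000 reads, after scaling) in every library, as the liver label implied. The libraries stood apart in other ways. In liver L981 the macrophage markers summed to 1913 CPM, against 191 to 469 CPM in the other 5 livers. In liver L992 the B and plasma cell markers summed to 158 CPM, against 4.27 to 30.2 CPM in the others. Axin2 and Glul, known targets of β-catenin, were at 81.2 and 9494 CPM in T-HCC662 and at 72.9 and 10316 CPM in T-HCC663. They did not exceed 4.15 and 439 CPM in the other 4 tumors, so that both tumors of the Ctnnb1 class stood apart from the others in these targets. Tert was at 10.5 to 17.3 CPM in livers and at 4.69 to 26.1 CPM in tumors, and a count per gene does not tell the transgene from the mouse's own gene.

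Promoter sequence is shown for Tnfrsf19 and Ltb, on which the description of the driver classes turns. RefSeq (GRCm38.p6) gave 35 promoters for 31 of the members, and the 250 bases before each start were searched on both strands. Only the bases outside annotated exons are printed, on the strand of the gene. Tnfrsf19 (Troy) has an upstream start, preceded by chr14:61046856-61047105, and a downstream start, preceded by chr14:61038108-61038237, both on the minus strand. Ltb is preceded by chr17:35194257-35194438 on the plus strand. Capitals mark a match to the core motif of the TCF/LEF factors, partners of β-catenin, in Tnfrsf19 and to the NF-kB consensus in Ltb.
Tnfrsf19, upstream start: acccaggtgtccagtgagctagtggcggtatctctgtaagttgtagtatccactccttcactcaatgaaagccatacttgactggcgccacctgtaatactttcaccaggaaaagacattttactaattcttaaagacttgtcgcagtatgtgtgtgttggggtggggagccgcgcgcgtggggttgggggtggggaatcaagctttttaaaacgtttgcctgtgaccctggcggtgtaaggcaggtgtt
Tnfrsf19, downstream start: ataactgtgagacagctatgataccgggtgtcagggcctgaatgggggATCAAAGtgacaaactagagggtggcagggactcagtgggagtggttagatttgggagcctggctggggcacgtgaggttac
Ltb: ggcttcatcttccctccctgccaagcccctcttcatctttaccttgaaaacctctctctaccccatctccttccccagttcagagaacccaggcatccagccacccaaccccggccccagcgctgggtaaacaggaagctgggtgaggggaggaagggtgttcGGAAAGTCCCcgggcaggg
The TCF/LEF core was taken as CTTTG followed by AA, AT, TA or TT. It stood 202 bases before the downstream start of Tnfrsf19 and was not among the letters before the upstream start. It occurred in 6 of the 35 member promoters and in 14.8% of 32851 promoters of all genes. The NF-kB consensus stood 87 bases before the start of Ltb. It occurred in 4 of the 35 member promoters and in 7.25% of all promoters. No match printed here overlapped one to the other motif, and a match describes letters only.

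In non-tumoral livers the superfamily was led by receptors. Scaled by exon length, Ltbr, the receptor of lymphotoxin and LIGHT, had the highest mean level at 52.7 ± 14.1 CPM per kb (SD, n = 6). Tnfrsf1a, the death domain receptor of TNF, followed at 49.4 ± 16.6 CPM per kb, and these neighbors did not differ beyond their spread. Tnfsf12 (TWEAK) reached 14.6 ± 5.22 CPM per kb, Fas 13.4 ± 6.48 CPM per kb and Tnfrsf1b, the other TNF receptor, 9.95 ± 1.85 CPM per kb. These 3 also overlapped among themselves. In tumors the length-scaled mean of Tnfrsf12a rose from the sixth to the third place among the members, from 6.19 to 35.3 CPM per kb, while Ltbr at 52.4 and Tnfrsf1a at 49.3 CPM per kb stayed in front. Of the 41 members, 25 had a read in every library and 40 had a read in some library. Cd70, the ligand of Cd27, had no read in any library, which at these depths allows up to 0.108 to 0.228 CPM. Tnfrsf17, a plasma cell receptor, never exceeded 3 reads. These limits cover counting error only.

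**Figure D1:**
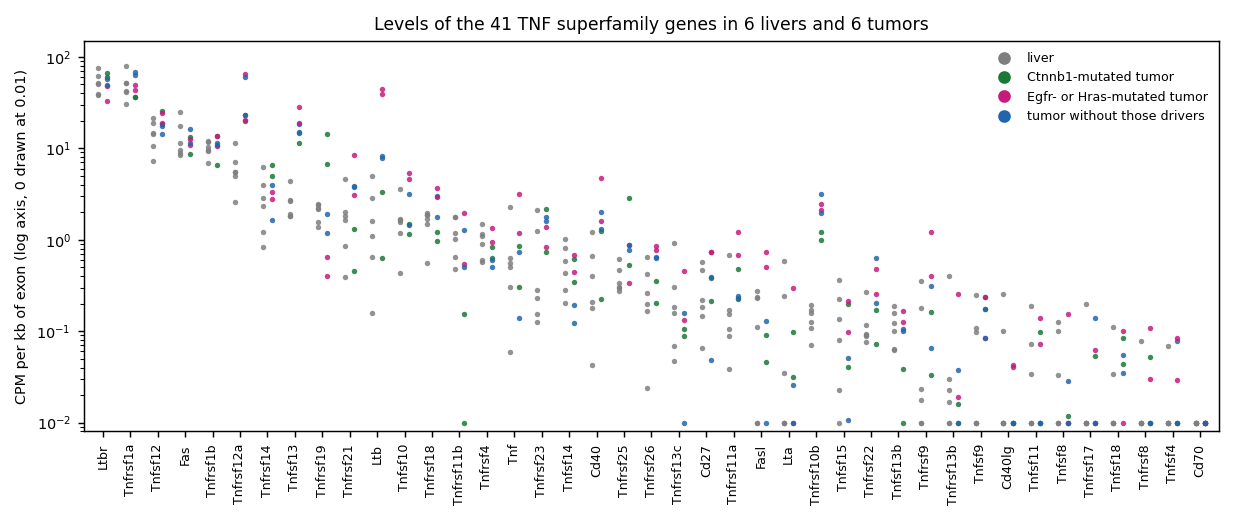
Level of each of the 41 genes in each library, in CPM per kb of exon on a log axis, with values of 0 drawn at 0.01. Genes are ordered by their mean in livers, gray points are livers and colored points are tumors by driver class. Ltbr and Tnfrsf1a lie highest in both tissues, and Cd70 lies at 0 in all 12 libraries.

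Counts were compared between all 6 tumors and all 6 livers with edgeR's quasi-likelihood test, adjusted over all genes tested. The pairing by mouse was not used unless a block is named. A gene was called where its adjusted p was below 0.05. In this comparison 26 of the 41 members passed the filter on low counts. Among them 4 were called up-regulated and 0 down-regulated, against 6.77% of the 13822 genes tested that were called up-regulated and 3.91% that were called down-regulated. The median log2 fold change was 0.66 over the members tested and 0.01 over all genes tested. The members called were Tnfsf13 (chr11:69682846-69685784, minus strand, GRCm38), Tnfrsf10b (chr14:69767472-69784411, plus strand), Tnfrsf12a (chr17:23675445-23677468, minus strand) and Ltb (chr17:35194439-35196320, plus strand). In 3 of them every tumor exceeded every liver, a pattern found in 2.93% of the genes tested, and no member lay below all livers in every tumor, as 2.18% of the genes did. In bulk tissue a change in the number of cells of a type and a change in RNA per cell cannot be told apart.

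Among receptors, Tnfrsf10b, the mouse death receptor for TRAIL, changed most. It was at 0.387, 0.777 and 1.05 CPM (lowest, median, highest) in livers. It reached 6.67 CPM in T-HCC662 and 5.43 in T-HCC663 (Ctnnb1), 13.3 in T-HCC941 and 11.6 in TCi-HCC981 (Egfr or Hras), and 17.3 in T-HCA992 and 10.7 in TCi-HCA984 (neither). All tumors exceeded all livers, and the Ctnnb1 class held the lowest tumor values. At least a part of the Tnfrsf10b transcript is near-identical to a part of those of Brca2 and Gm15574. How multiply mapped reads were counted is not stated. Tnfrsf10b rose by 3.82 ± 0.36 on the log2 scale (SE, adjusted p = 0.00019), and the tumor exceeded the liver of its mouse in 6 of 6 mice. Its ligand Tnfsf10 (TRAIL) was at 2.28, 8.41 and 19.1 CPM in livers. In tumors Tnfsf10 was at 6.04 CPM in T-HCC662 and 7.76 in T-HCC663 (Ctnnb1), 24.5 in T-HCC941 and 28.4 in TCi-HCC981 (Egfr or Hras), and 16.8 in T-HCA992 and 7.55 in TCi-HCA984 (neither). The groups overlapped, and the log2 fold change of Tnfsf10 was 0.76 ± 0.49 (adjusted p = 0.353). At least a part of the Tnfsf10 transcript is near-identical to a part of that of Cdc26.

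Tnfrsf12a (Fn14), the receptor of TWEAK, was at 5.00, 10.7 and 22.0 CPM in livers. It was at 45.1 CPM in T-HCC662 and 38.6 in T-HCC663 (Ctnnb1), 126 in T-HCC941 and 39.2 in TCi-HCC981 (Egfr or Hras), and 117 in T-HCA992 and 44.4 in TCi-HCA984 (neither). Again no tumor overlapped the livers, and T-HCC941 and T-HCA992 stood above the other 4 tumors. Tnfrsf12a rose by 2.50 ± 0.42 on the log2 scale (adjusted p = 0.00326, higher in 6 of 6 mice). Its ligand Tnfsf12 ranged from 11.0 to 32.4 CPM in livers and from 21.9 to 39.1 CPM in tumors and was not called. The limit on shared exons given below for Tnfsf13 holds for Tnfsf12 too.

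Tnfsf13 (APRIL), a ligand for receptors of B and plasma cells, was at 2.95, 3.77 and 7.10 CPM in livers. It was at 24.0 CPM in T-HCC662 and 18.8 in T-HCC663 (Ctnnb1), 45.8 in T-HCC941 and 31.3 in TCi-HCC981 (Egfr or Hras), and 30.0 in T-HCA992 and 24.4 in TCi-HCA984 (neither). The lowest tumor lay above the highest liver, and the log2 fold change was 2.79 ± 0.28 (adjusted p = 0.000312, higher in 6 of 6 mice). Tnfsf13 and Tnfsf12 share exons with Tnfsfm13, an annotated transcript unit that joins them. How reads on shared exons were assigned is not stated, which limits the values of both. Tnfsfm13 itself was at 10.1 to 23.1 CPM in livers and at 33.3 to 60.1 CPM in tumors. The receptors of Tnfsf13 were rare. Tnfrsf13b did not exceed 1.13 CPM and Tnfrsf17 did not exceed 0.161 CPM in any library.

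**Figure D2:**
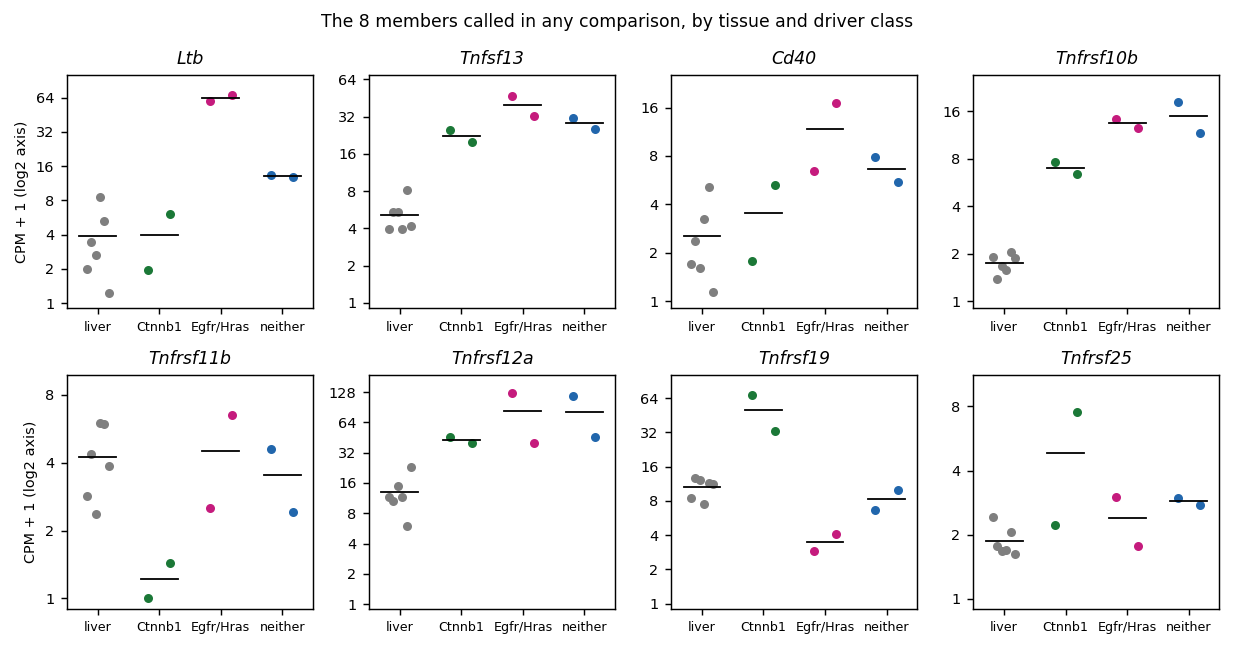
CPM plus 1 on a log2 axis for the 8 members called in any comparison. Each point is a library, gray for livers and colored for tumors by driver class, and each line is the mean of its group. Tnfsf13, Tnfrsf10b and Tnfrsf12a lay above all livers in every class, whereas Tnfrsf19 lay above the livers in the Ctnnb1 class and below them in the Egfr or Hras class.

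The tumor classes were then compared with the same 6 livers in 1 model, in which 31 of the 41 members passed the filter. The 10 that did not were Tnfsf4, Tnfsf8, Tnfsf9, Tnfsf11, Tnfsf18, Lta, Cd70, Cd40lg, Tnfrsf8 and Tnfrsf17, with at most 15 reads in any library. Since the 3 comparisons share their livers, their values are only set side by side. In the Ctnnb1 class 5 members were called up-regulated, beside 5.00% of 15182 genes, and 1 down-regulated, beside 3.20%. In the Egfr or Hras class 5 were up-regulated, beside 9.57%, and 1 was down-regulated, beside 8.62%. In tumors without those drivers 3 were up-regulated, beside 5.67%, and 0 down-regulated, beside 2.43%. The median log2 fold change over the members tested was -0.07 in the Ctnnb1 class, 0.74 in the Egfr or Hras class and 0.16 in tumors without those drivers, beside -0.03 over all genes in each.

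Tnfsf13, Tnfrsf10b and Tnfrsf12a were called in each of the 3 classes. The log2 fold change of Tnfrsf10b was 2.96 ± 0.33 in the Ctnnb1 class, 4.00 ± 0.33 in the Egfr or Hras class and 4.20 ± 0.33 in tumors without those drivers (adjusted p = 0.000447, 3.51e-05 and 7e-05). That of Tnfsf13 was 2.33 ± 0.30, 3.17 ± 0.30 and 2.70 ± 0.30 (adjusted p = 0.0011, 8.4e-05 and 0.000623). That of Tnfrsf12a was 1.78 ± 0.49, 2.75 ± 0.48 and 2.74 ± 0.48 (adjusted p = 0.0477, 0.00313 and 0.00667). Blocked by mouse, Tnfrsf12a kept its call in the Egfr or Hras class and lost it in the Ctnnb1 class (adjusted p = 0.066) and in tumors without those drivers (adjusted p = 0.0938). With 1 library left out at a time, its call in the Ctnnb1 class held only without liver L984 or a tumor of another class (adjusted p = 0.0526 to 0.205 otherwise). Its call was also lost without T-HCC941 in the Egfr or Hras class (log2 fold change 1.68, adjusted p = 0.0861) and without T-HCA992 in tumors without those drivers (1.90, adjusted p = 0.187).

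**Figure D3:**
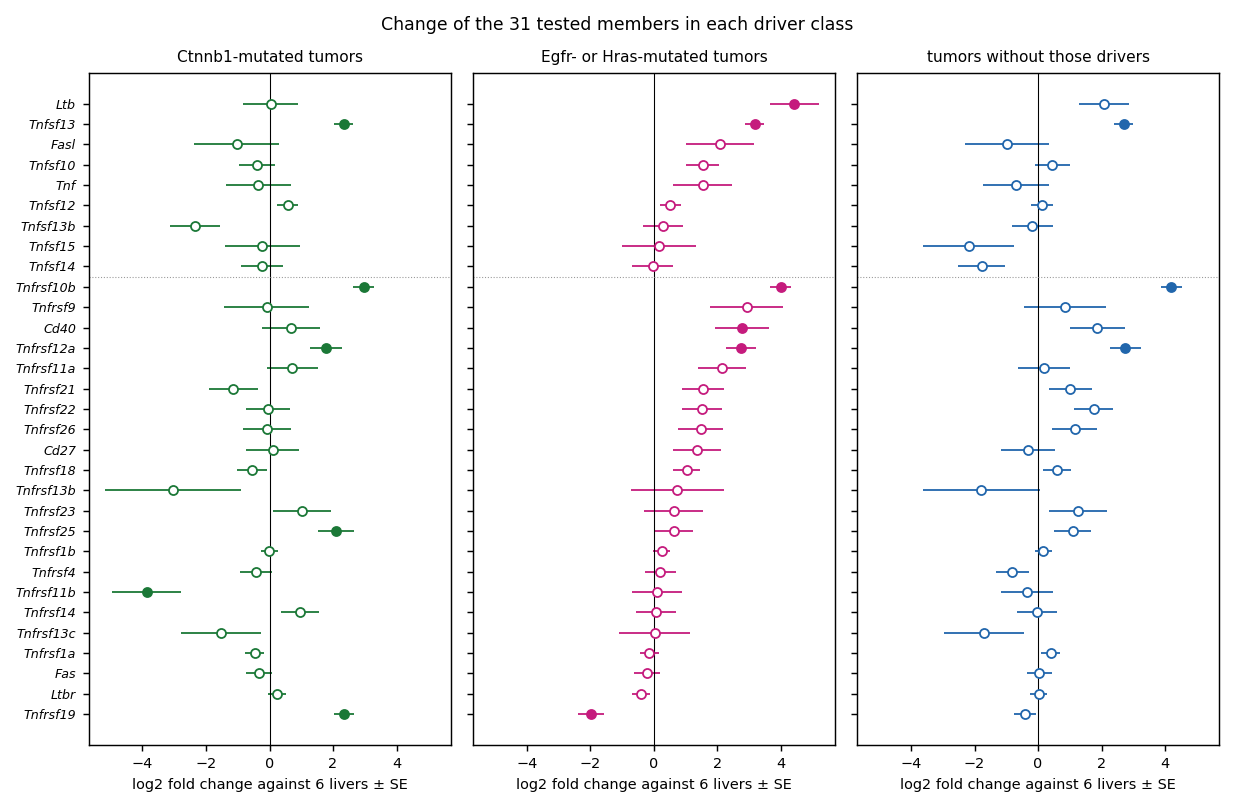
Log2 fold change against the 6 livers, with its SE, for the 31 members that passed the filter, ligands above the dotted line and receptors below it. Filled points passed the adjusted p threshold. Tnfrsf10b, Tnfsf13 and Tnfrsf12a are filled in every panel, and Tnfrsf19 is filled on opposite sides of 0 in the Ctnnb1 class and the Egfr or Hras class.

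Tnfrsf19, an orphan receptor known as a target of Wnt signaling and as a marker of Ctnnb1-mutated liver tumors, separated the classes. It was at 6.49, 10.4 and 11.7 CPM in livers. It reached 67.3 (T-HCC662) and 32.2 CPM (T-HCC663), fell to 1.89 CPM in T-HCC941 and 3.08 CPM in TCi-HCC981, and was at 5.59 CPM in T-HCA992 and 8.97 CPM in TCi-HCA984. Both tumors of the Ctnnb1 class lay above all livers, both of the Egfr or Hras class lay below all livers, and T-HCA992 also lay below them while TCi-HCA984 lay among them. The log2 fold change was 2.34 ± 0.31 in the Ctnnb1 class (adjusted p = 0.00123) and -1.98 ± 0.40 in the Egfr or Hras class (adjusted p = 0.00639). It was -0.41 ± 0.35 in tumors without those drivers (adjusted p = 0.516). Without T-HCC941 the decrease in the Egfr or Hras class was -1.67 and not called (adjusted p = 0.0724). Set against the other 4 tumors directly, the Ctnnb1 class was higher by 3.54 ± 0.36 (adjusted p = 0.000267), and this call held in each of the alternatives tried. The promoter letters with a TCF/LEF core, shown above, belong to the downstream start of this gene, and the counts do not tell its starts apart.

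Tnfrsf11b (osteoprotegerin), a secreted decoy receptor for RANK ligand, went the other way. It was at 1.36, 3.11 and 4.99 CPM in livers. It had no read in T-HCC662, which allows up to 0.135 CPM, and was at 0.438 CPM in T-HCC663. It was at 1.51 CPM in T-HCC941, 5.55 in TCi-HCC981, 3.62 in T-HCA992 and 1.42 in TCi-HCA984. The Ctnnb1 class lay below every liver and every other tumor, and the rest overlapped the range of the livers or lay above it. The log2 fold change against livers was -3.86 ± 1.08 (adjusted p = 0.0488) and that against the other tumors was -3.74 ± 1.09 (adjusted p = 0.0455). The latter was not called when blocked by mouse (adjusted p = 0.105). Without T-HCC662 the values were -2.90 (adjusted p = 0.181) and -2.77 (adjusted p = 0.179), and leaving out 1 library at a time, the first call held only without T-HCC663, T-HCC941 or TCi-HCC981 and the second only without liver L941, T-HCC663 or T-HCC941. The stellate cell and fibroblast markers moved with it. Of 8, 3 were called down-regulated in the Ctnnb1 class against livers and 2 against the other tumors (3 and 0 when blocked by mouse), and their sum was 31.5 (T-HCC662) and 75.2 CPM (T-HCC663), against 58.6 to 269 CPM in livers and 152 to 377 CPM in the other tumors. Their part in the result was not tested. Of its ligands, Tnfsf11 (RANK ligand) did not exceed 10 reads, and Tnfsf10 (TRAIL), which it also binds, is described above.

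Tnfrsf25 (DR3), a death domain receptor of T cells, was called in the Ctnnb1 class through 1 tumor. It was at 0.630, 0.736 and 1.41 CPM in livers and at 6.49 CPM in T-HCC663. The other tumors held 1.22 CPM (T-HCC662), 2.00 (T-HCC941), 0.770 (TCi-HCC981), 1.97 (T-HCA992) and 1.76 (TCi-HCA984). Its increase was 2.10 ± 0.56 on the log2 scale (adjusted p = 0.0422), and without T-HCC663 it was 0.47 (adjusted p = 0.803). Blocked by mouse, the adjusted p was 0.425, and with 1 library left out at a time the call held only without liver L662, T-HCC662, T-HCC941 or TCi-HCC981.

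**Figure D4:**
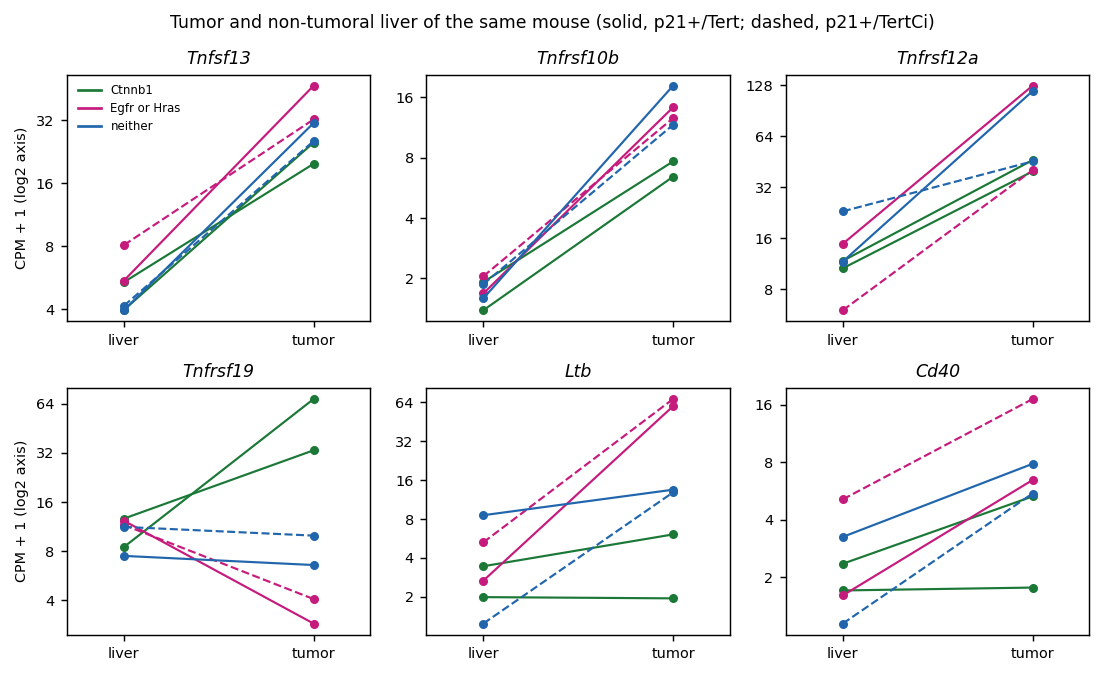
CPM plus 1 on a log2 axis in the non-tumoral liver and the tumor of each mouse, for 6 members. Lines join samples of 1 mouse, colored by the driver class of the tumor, solid for p21+/Tert and dashed for p21+/TertCi mice. The tumor was above the liver of its mouse in 6 of 6 mice for Tnfsf13, Tnfrsf10b, Tnfrsf12a and Cd40, in 5 of 6 for Ltb and in 2 of 6 for Tnfrsf19.

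Ltb, the lymphotoxin β chain that anchors lymphotoxin α in the membrane, was at 0.242, 2.06 and 7.57 CPM in livers. It was at 0.946 (T-HCC662) and 5.08 CPM (T-HCC663), at 58.8 CPM in T-HCC941 and 67.0 CPM in TCi-HCC981, and at 12.5 CPM in T-HCA992 and 11.9 CPM in TCi-HCA984. The Ctnnb1 class lay within the range of the livers, and the other 4 tumors lay above it. The log2 fold change was 0.04 ± 0.87 in the Ctnnb1 class (adjusted p = 0.985), 4.42 ± 0.77 in the Egfr or Hras class (adjusted p = 0.00293) and 2.08 ± 0.78 in tumors without those drivers (adjusted p = 0.125). Over all tumors it was 3.17 ± 0.95 (adjusted p = 0.0491), which was not called when blocked by mouse (adjusted p = 0.0677) and, with 1 library left out at a time, held only without liver L992, T-HCC662 or T-HCC663 (adjusted p = 0.0503 to 0.107 otherwise). The difference of the Ctnnb1 class from the other tumors was -3.21 ± 1.05 and not called (adjusted p = 0.0656), although DESeq2 called it (adjusted p = 0.00376). Lta, its partner, did not exceed 15 reads in any library. Ltbr, its receptor, was at 89.5, 120 and 178 CPM in livers and at 155 CPM in T-HCC662 and 143 in T-HCC663 (Ctnnb1), 113 in T-HCC941 and 77.4 in TCi-HCC981 (Egfr or Hras), and 116 in T-HCA992 and 135 in TCi-HCA984 (neither). The groups overlapped, and the log2 fold change of Ltbr was -0.02 ± 0.21 (adjusted p = 0.964).

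Cd40, a receptor of B cells, dendritic cells and macrophages, was at 0.145, 1.03 and 4.12 CPM in livers. It was at 0.766 CPM in T-HCC662 and 4.29 in T-HCC663 (Ctnnb1), 5.45 in T-HCC941 and 16.1 in TCi-HCC981 (Egfr or Hras), and 6.84 in T-HCA992 and 4.49 in TCi-HCA984 (neither). The tumors other than T-HCC662 lay above all livers, and the tumor exceeded the liver of its mouse in 6 of 6 mice. Over all tumors the log2 fold change was 2.03 ± 0.73 (adjusted p = 0.0943, or 0.0333 when blocked by mouse). It was called in the Egfr or Hras class alone (2.77 ± 0.84, adjusted p = 0.0403), not called there with the block (adjusted p = 0.0857), and 1.78 without TCi-HCC981 (adjusted p = 0.374). With 1 library left out at a time this call held only without L981 or L984, T-HCC662 or T-HCC663. Its ligand Cd40lg did not exceed 6 reads. At least a part of the Cd40 transcript is near-identical to a part of those of Gm33979, Hs6st1 and Invs.

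Tnf, the founding ligand, was at 0.097, 0.873 and 3.74 CPM in livers. It was at 0.496 CPM in T-HCC662 and 1.40 in T-HCC663 (Ctnnb1), 1.94 in T-HCC941 and 5.14 in TCi-HCC981 (Egfr or Hras), and 1.22 in T-HCA992 and 0.227 in TCi-HCA984 (neither). The highest value of each tissue came from L981 and TCi-HCC981, samples of 1 mouse, and the log2 fold change was 0.52 ± 0.77 (adjusted p = 0.714). Within mice the tumor exceeded the liver in 6 of 6, by 0.001 to 0.682 on the log2(CPM + 1) scale, and blocked by mouse the log2 fold change was 0.57 ± 0.30 (adjusted p = 0.219). Its receptor Tnfrsf1a was at 78.7, 121 and 205 CPM in livers and at 94.1 CPM in T-HCC662 and 94.7 in T-HCC663 (Ctnnb1), 127 in T-HCC941 and 112 in TCi-HCC981 (Egfr or Hras), and 175 in T-HCA992 and 164 in TCi-HCA984 (neither). No tumor lay outside the range of the livers, and the log2 fold change was -0.01 ± 0.25 (adjusted p = 0.979). Tnfrsf1b was at 26.4, 37.8 and 45.9 CPM in livers and at 25.1 CPM in T-HCC662 and 51.7 in T-HCC663 (Ctnnb1), 40.1 in T-HCC941 and 51.7 in TCi-HCC981 (Egfr or Hras), and 41.8 in T-HCA992 and 43.3 in TCi-HCA984 (neither), with a log2 fold change of 0.15 ± 0.19 (adjusted p = 0.667).

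Fas, the death receptor of hepatocytes, was at 17.6, 21.6 and 51.1 CPM in livers. In tumors it was at 27.5 CPM in T-HCC662 and 17.7 in T-HCC663 (Ctnnb1), 22.6 in T-HCC941 and 25.9 in TCi-HCC981 (Egfr or Hras), and 23.8 in T-HCA992 and 33.7 in TCi-HCA984 (neither), all within the livers' range (log2 fold change -0.15 ± 0.28, adjusted p = 0.779). Fasl, its ligand on cytotoxic cells, was at 0, 0.333 and 0.531 CPM in livers. It was at 0.090 CPM in T-HCC662 and 0.175 in T-HCC663 (Ctnnb1), 0.972 in T-HCC941 and 1.44 in TCi-HCC981 (Egfr or Hras), and 0.251 in T-HCA992 and 0 in TCi-HCA984 (neither). Fasl was highest in the Egfr or Hras class and passed the filter only in the class model, where its log2 fold change there was 2.08 ± 1.07 (adjusted p = 0.193).

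The other 26 members ranged up to 39.1 CPM, a value of Tnfsf12, and edgeR called none of the 16 that passed the filter of the class model against livers in any class. DESeq2 called 2 of them, Tnfsf13b (BAFF) as lower in the Ctnnb1 class and Tnfrsf11a (RANK) as higher in the Egfr or Hras class. Its calls over all genes in these classes are not given here. Leaving out livers L981 and L992, which carried the highest macrophage and B cell marker levels, raised the count of called members from 6 to 10 in the Egfr or Hras class, while the calls over all genes went from 2762 of 15182 to 3153 of 15002. The members added were Tnfrsf11a, Tnfrsf21 (DR6), Tnfrsf9 (4-1BB) and Tnfsf10. Liver L981 held the highest liver value of each, at 4.03, 18.9, 0.966 and 19.1 CPM in that order. Leaving it out lowers their mean in livers, so that the added calls are no independent evidence for these genes. Leaving out liver L981 alone gave 11 members, beside 3270 of 15095 genes, and leaving out T-HCC941 gave 3, beside 1327 of 15798 genes. In the Ctnnb1 class leaving out both livers lowered the count from 6 to 3. For all tumors it raised the count from 4 to 7, and for tumors without those drivers from 3 to 5. Calls over all genes in these last comparisons are not given here. The counts therefore do not tell a change in the members from a general one.

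The 13 T cell markers summed to 69.3 CPM in T-HCC941, 55.4 in T-HCC663, 41.6 in TCi-HCC981, 26.8 in T-HCC662, 20.0 in T-HCA992 and 14.8 in TCi-HCA984, against 11.9 to 35.1 CPM in livers. Of these, Cd3d, Cd3e and Cd3g summed to 9.56 CPM in T-HCC941 and 5.50 CPM in TCi-HCC981, against 0.97 to 3.73 CPM in the other tumors and 0.44 to 5.21 CPM in livers. Foxp3 gave a large part of the sum of all 13, at 6.35 to 22.9 CPM in livers and 5.59 to 24.1 CPM in tumors. In T-HCC663 Foxp3 was at 24.1 CPM and Cd4 at 13.0 CPM, while its Cd3 sum of 3.73 CPM lay within the range of the livers. Against livers, 1 of 13 T cell markers (Cd8a), 1 of 7 NK cell markers (Prf1), 1 of 6 dendritic cell markers (Itgax), 0 of 11 macrophage markers and 0 of 9 B and plasma cell markers were called up-regulated in the Egfr or Hras class, and none was down-regulated. Blocked by mouse, 0 of the T cell, NK cell and dendritic cell markers were called there. Over these T cell markers 12 of 13 log2 fold changes were above 0. Over all tumors none of these 5 lists held a called gene without the block. With it, 2 macrophage markers were called up-regulated and 2 down-regulated, and 1 dendritic cell and 1 NK cell marker were up-regulated, and in the Ctnnb1 class 5 macrophage markers and 1 dendritic cell marker were up-regulated. No neutrophil marker was called in any comparison without the block. Of 8 endothelial markers, 2 (Pecam1 and Tie1) were up-regulated over all tumors. Of 7 hepatocyte markers 0 were called over all tumors, and 2 were down-regulated in the Ctnnb1 class and 1 in the Egfr or Hras class. Of 6 bile duct markers 1, Sox9, was up-regulated in the Egfr or Hras class and in tumors without those drivers and down-regulated in the Ctnnb1 class. NK cell markers summed to 18.6 CPM in T-HCC941 and 25.2 CPM in TCi-HCC981, against 1.19 to 8.76 CPM in the other tumors and 0.97 to 18.7 CPM in livers. B and plasma cell markers summed to 4.27 to 158 CPM in livers and 7.30 to 45.4 CPM in tumors. Cd3e was at 0 in liver L941, and Ms4a1 was at 0 in L984, TCi-HCA984 and T-HCC663. The part of these cells in the results was not tested.

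**Figure D5:**
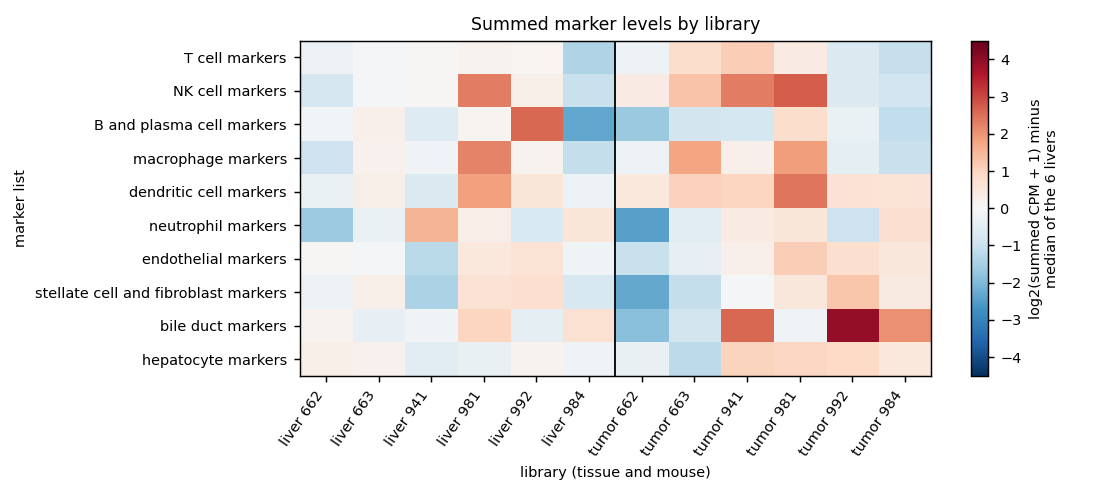
Summed CPM of each marker list in each library, as log2(sum + 1) minus the median of the 6 livers, red above and blue below it. Liver L981 stands out in macrophage markers (1913 CPM), liver L992 in B and plasma cell markers (158 CPM), and T-HCA992 in bile duct markers (1065 CPM), a list whose sum follows Spp1.

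Between tumor classes, 1 member (Tnfrsf19) was called higher in the Ctnnb1 class than in the other tumors, beside 6.76% of the genes tested, and 1 (Tnfrsf11b) lower, beside 5.72%. At an unadjusted p below 0.05 the counts were 1 higher and 8 lower of 31 members tested. Over all genes, 4587 of 15182 passed that threshold in either direction. DESeq2 called 7 members, among them Ltb, Tnfrsf10b, Tnfrsf18, Tnfrsf21 and Tnfsf13b as lower. It called 3081 genes in all, beside 24421 in the count files, a number that includes genes without a test. The fit with the mouse as a block called 1 member, Tnfrsf19, beside 441 of 15182 genes tested. Without the block edgeR had called 1895 of 15182. The Egfr or Hras class did not differ from tumors without those drivers in any call of edgeR (0 members, 0.00% of genes in each direction) or of DESeq2 (0 members). At an unadjusted p below 0.05 edgeR gave 2 of 31 members, beside 1331 of 15182 genes tested. Both members were those described above, with a log2 difference of -1.57 ± 0.44 in Tnfrsf19 (adjusted p = 0.464) and of 2.34 ± 1.06 in Ltb (adjusted p = 0.564).

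Between genotypes, edgeR called 0 members in p21+/TertCi against p21+/Tert livers (0.00% of genes) and 0 within driver class in tumors (0.00% of genes). At an unadjusted p below 0.05 it gave 5 of 31 members in livers, beside 1217 of 15182 genes tested. In tumors that threshold gave 1 of 31 members, beside 1259 of 15182 genes. DESeq2 called 3 members in livers and 0 in tumors, and its calls over all genes there are not given here. The 3 were Fas and Tnfrsf23, a decoy-like receptor for TRAIL, as higher and Tnfrsf14 (HVEM) as lower in p21+/TertCi livers, and by edgeR their log2 differences were 1.16 ± 0.24 (adjusted p = 0.379), 3.08 ± 0.51 (adjusted p = 0.201) and -1.87 ± 0.49 (adjusted p = 0.506). Tnfrsf23 was at 4.96 and 8.34 CPM in the p21+/TertCi livers and at 0.494 to 1.13 CPM in the 4 p21+/Tert livers. At least a part of its transcript is near-identical to a part of that of Tnfrsf22.

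Downstream of the receptors, 41 genes of adaptors and of the signaling cascade all passed the filter. Over all tumors 4 were called up-regulated and 0 down-regulated, beside 6.77% and 3.91% of all genes tested, with a median log2 fold change of 0.08 beside 0.01 over all genes. Of these, Relb and Nfkb2 encode subunits of the alternative NF-kB pathway, Map3k14 (NIK) is the kinase that starts it, and Tnfaip3 (A20) restrains the classical pathway. Relb was at 1.48 to 9.33 CPM in livers and 11.4 to 23.0 CPM in tumors (log2 fold change 1.91 ± 0.38, adjusted p = 0.00697). Nfkb2 was at 12.1 to 25.0 CPM in livers and 24.2 to 39.6 CPM in tumors (0.94 ± 0.20, adjusted p = 0.0111), and Tnfaip3 was at 1.62 to 8.86 CPM in livers and 8.16 to 20.7 CPM in tumors (1.71 ± 0.36, adjusted p = 0.00986). Relb did not overlap between tissues, whereas the lowest tumors in Nfkb2 and Tnfaip3 lay below the highest liver, that of L981. Ikbkb, a kinase of the classical pathway, was at 66.8 to 88.0 CPM in livers and at 144 and 145 CPM in the Ctnnb1 class, against 60.0 to 94.2 CPM in the other tumors (0.97 ± 0.18 higher than in those, adjusted p = 0.00747). By class, 3 of the 41 were up-regulated in the Ctnnb1 class, 6 in the Egfr or Hras class and 1 in tumors without those drivers, beside 5.00%, 9.57% and 5.67% of all genes, with 0 down-regulated in each. With the mouse as a block these counts were 2, 2 and 0, and 6 over all tumors. Between the Ctnnb1 class and the other tumors 2 were higher and 2 lower, beside 6.76% and 5.72% of all genes, and 0 with the block.

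Of 25 NF-kB responsive genes, 8 of which are also in the cascade list, 22 were tested over all tumors. There 5 were up-regulated and 1 down-regulated, beside 6.77% and 3.91% of all genes tested. The median log2 fold change was 0.79, beside 0.01 over all genes. With the mouse as a block the counts were 9 and 1. The decrease was that of Sod2, a mitochondrial superoxide dismutase, at 147 to 220 CPM in livers and 60.7 to 107 CPM in tumors (-1.06 ± 0.18, adjusted p = 0.00334). By class, 24 were tested. Of these 2 were up-regulated in the Ctnnb1 class, 10 in the Egfr or Hras class and 2 in tumors without those drivers. Beside these stand 5.00%, 9.57% and 5.67% of all genes tested. In each class 1 was down-regulated, beside 3.20%, 8.62% and 2.43%. With the block 5, 4 and 1 were up-regulated and 0, 1 and 0 down-regulated, and shares over all genes with the block are not given here. Between the Ctnnb1 class and the other tumors 0 were higher and 1, Nfkb1, was lower, beside 6.76% and 5.72% of all genes. With the block 0 were called. The mouse of TCi-HCA984 stood apart in Lcn2, at 4776 CPM in L984 and 5422 CPM in the tumor, against 13.6 to 787 CPM in the other livers.

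Of 5 superfamily genes outside the naming rule, 4 were tested. Eda2r, the receptor of ectodysplasin A2, was at 1.59 to 2.54 CPM in livers and 2.16 to 17.1 CPM in tumors (1.99 ± 0.46, adjusted p = 0.0164), highest in T-HCA992 and TCi-HCC981. Ngfr, the low-affinity neurotrophin receptor, was at 1.67 to 8.69 CPM in livers and at 0.135 (T-HCC662) and 0.351 CPM (T-HCC663), against 0.972 to 3.33 CPM in the other tumors (-3.02 ± 0.71 against those, adjusted p = 0.0213, not called when blocked by mouse).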

How the data were processed

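Poly(A) RNA of 6 tumors and 6 livers had been sequenced in paired ends. Per the labels and the study's methods, the authors aligned reads with Subread to mm10 (mCherry sequence included) and made gene counts by featureCounts 1.6.4. The deposited values are raw counts. Strand setting, treatment of multiply mapped reads and annotation release are not given in the sources used here. The study corrected for sequencing run, which is not given per sample, so that this was not repeated. Counts were tested with edgeR 4.0.16 in R 4.3.3 (TMM scaling, filterByExpr, quasi-likelihood test, Benjamini-Hochberg adjustment over all genes tested, two-sided, threshold 0.05), and the SE is the log2 fold change over the square root of F. CPM are scaled by TMM. Levels between genes were divided by exon length. Driver classes were compared in 1 model over the 12 libraries and genotypes in the same model with a term for livers and a term for tumors. Within a tissue each sample came from another mouse. The main tests did not use the pairing of tumor and liver by mouse, and their p-values measure the spread between samples of a group. Those of the fit with the mouse as a block measure the spread left within mice. The scripts were tested on simulated data. Alternatives were DESeq2 1.42.0, its size factors in edgeR, no filter beyond 1 count, the mouse as a block, leaving out each library and, chosen after seeing the data, leaving out livers L981 and L992.

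Members and lists were chosen with earlier results of these data known. The value in each tumor and the lowest, median and highest liver value are given for members called in a comparison of tumors and for Tnf, Fas, Fasl, Tnfsf10, Tnfrsf1a, Tnfrsf1b, Ltbr and Cd40, and for lists a few of the genes of smallest p. Liver L662 (p_961 in its label) was taken as such because the other 5 livers are named for the other 5 mice. Tumor and liver of 1 mouse pair by animal. The correlation of their deviations from the group means over 13822 genes was 0.169 for L662 and its tumor, 0.04 for L663, 0.006 for L941 and 0.427 for L992. It was 0.542 for L981 and L984, equal by construction because deviations in a group of 2 mice mirror each other. The median was 0.298, against -0.065 between mice, and taking deviations from group means lowers the latter. The most similar liver was the tumor's own for T-HCA992, TCi-HCC981 and TCi-HCA984. For T-HCC662, T-HCC663 and T-HCC941 it was another liver, so that these values do not settle the assignment of L662.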

Additional observations from a re-analysis of the deposited data

Results flagged for a closer look

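Of 30 groups of 6 libraries checked for the members described in full, 4 held a library far from the rest. For independent and normally distributed values chance alone gives about 1 in 20. The check used CPM without a log transform, and the outlying library was the highest of its group each time. That rate need not hold here. The gap of the outlying library to its neighbor, over the range of the group, was compared with Dixon's critical value of 0.625. It was 0.743 for Tnf in livers, where L981 was at 3.74 CPM, and 0.65 for Tnf in tumors, where TCi-HCC981 was at 5.14 CPM. It was 0.633 for Tnfsf13 in livers, again through L981 at 7.10 CPM. It was 0.785 for Tnfrsf25 in tumors, through T-HCC663 at 6.49 CPM. Liver L981 also carried the highest macrophage marker sum of the livers, and its part in these values was not tested.

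The change against livers differed between the Ctnnb1 class and the other tumors for 2 members. Tnfrsf19 differed by 3.54 on the log2 scale (edgeR, adjusted p = 0.000267) and Tnfrsf11b by -3.74 (adjusted p = 0.0455).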

How the results depend on the processing

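Of 21 calls of a member in a comparison, 12 held under every alternative tried for them, and 0 reversed. They were those of Tnfsf13 and Tnfrsf10b in each class and over all tumors, of Tnfrsf12a over all tumors, of Ltb in the Egfr or Hras class and of Tnfrsf19 in the Ctnnb1 class, against livers and against the other tumors. With 1 library left out at a time, the number of members called ranged from 3 to 5 over all tumors (4 with every library), from 3 to 6 in the Ctnnb1 class (6), from 3 to 11 in the Egfr or Hras class (6), from 2 to 4 in tumors without those drivers (3) and from 1 to 2 between the Ctnnb1 class and the other tumors (2). In the Ctnnb1 class it was 3 without L663, L941, L992 or L981. Between the Ctnnb1 class and the other tumors it was 1 without liver L663 or without T-HCC662, T-HCA992, TCi-HCC981 or TCi-HCA984. It stayed at 0 between the remaining tumor classes and between genotypes. A class left with 1 tumor was assumed to vary like the others. Leaving out livers L981 and L992, chosen after seeing the data, gave 7 over all tumors, 3 in the Ctnnb1 class, 10 in the Egfr or Hras class and 5 in tumors without those drivers. DESeq2 gave 7 between the Ctnnb1 class and the other tumors and 3 between livers of the genotypes. With the mouse as a replicate block the counts were 4 over all tumors, 4, 5 and 2 by class and 1 between the Ctnnb1 class and the other tumors, and the block without the pair of T-HCC662 gave 5 over all tumors. Except where stated above, calls over all genes under these settings are not given here. The counts alone therefore do not show a change particular to the members. The cause of these changes was not tested. With a pseudocount of 0.1 in place of 1 CPM, 13 of 15 median differences between tumor and liver moved by less than 1 SD, and those of Fasl (0.461) and Tnfrsf10b (3.49) by more. With 2 tumors per class and members of a few reads, smaller differences were not detectable at this depth.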
